A study of Mus musculus with 6 samples.

Results

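The poly(A) binding proteins and the CPEB proteins were followed in mouse oocytes through their mRNAs. The set comprised Pabpc1, Pabpc1l, Pabpc4 and Pabpn1 of the poly(A) binding proteins and Cpeb1, Cpeb2, Cpeb3 and Cpeb4 of the cytoplasmic polyadenylation element binding proteins. A member was read from a probe set, a row of the array table, that the platform annotation assigns to that gene alone. By this rule 7 of the 8 genes were measured, each by a single row, out of 19939 genes named in this way. Pabpc4 had no row of its own.

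The arrays held RNA of fully-grown oocytes at the germinal-vesicle stage, 3 samples from wild-type females (Marf1+/+) and 3 from Marf1 ENU/ENU mutants. In the mutants both copies of Marf1 carry an allele induced with the mutagen ENU. Both groups shared the strain background C57BL/6J;C3HeB/FeJ. All females were primed at 21 days of age with 5 IU of equine chorionic gonadotropin for 46 hours, were 23 days old at collection, and had their oocytes freed of cumulus cells by pipetting. The labels name no separate animals or pools behind the samples, and each p-value therefore reflects sample-to-sample spread that could be purely technical.

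Fully-grown oocytes have largely stopped transcribing, and their protein synthesis depends mainly on stored mRNAs. CPEB proteins bind a U-rich element in the untranslated region before the poly(A) tail of such mRNAs and hold them silent with short poly(A). After phosphorylation CPEB proteins recruit the machinery that lengthens the poly(A) tail. Poly(A) binding proteins then coat the tail and connect it to the translation initiation complex. Pabpc1 encodes the main cytoplasmic form of somatic cells and Pabpc1l the form, also called ePAB, that predominates in oocytes and early embryos. The comparison asks how the mRNAs of this machinery respond to loss of normal Marf1, which encodes an RNA-binding protein required for oocytes to resume meiosis.

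The RefSeq promoter table held 6 of the 8 genes, with no entry for Pabpc1 or Cpeb2. The 250 bases before the Pabpc1l start (GRCm38.p6, chr2:164024974-164025223, plus strand) are shown because Pabpc1l, the oocyte form, was the only gene with an entry among the 2 members called below, with capitals for the single match to CANNTG, the E-box letters to which basic helix-loop-helix factors bind.
Pabpc1l: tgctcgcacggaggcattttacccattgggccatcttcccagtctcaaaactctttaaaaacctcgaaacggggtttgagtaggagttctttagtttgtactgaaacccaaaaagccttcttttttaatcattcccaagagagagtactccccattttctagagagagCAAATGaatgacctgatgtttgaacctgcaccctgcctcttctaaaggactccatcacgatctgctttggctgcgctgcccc

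The E-box letters begin 82 bases before the start. CANNTG reads the same on both strands and was present in 66.2% of 32851 upstream windows of the same length, so a match is common. TATAAA and GGGCGG, searched on both strands, had 0 matches in the Pabpc1l window, against 12.4% and 32.7% of all windows with at least 1. The G and C content of the Pabpc1l window was 46%, with 27.1% of windows lower. The Cpeb1 window also had 1 match to CANNTG but differed otherwise, with 74% G and C, 4 matches to GGGCGG and 1 to TATAAA. Other windows were more alike. The Pabpn1 window (56% G and C) and 1 of the Cpeb3 windows (46%) also had 0 matches to TATAAA and GGGCGG. The array values measure stored RNA and do not read promoter activity.

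Marf1 itself, the check of the labels, was 9.23 ± 0.08 in wild type and 6.18 ± 0.21 in the mutant (log2, mean ± SD, n = 3 each here and below), a log2 fold change of -3.05 (SE 0.15, limma adjusted p = 1e-04). The sources used here do not place its probes relative to the mutation. Across all rows, r between wild-type arrays was 0.984 to 0.985 and between mutant replicates 1 and 2 0.985, while mutant replicate 3 correlated less well with both (0.970 and 0.973). Among 16 oocyte markers all had a mean above 4.52, the 95th percentile of the means of 1178 olfactory and vomeronasal receptor genes, used here to describe a dim signal. Levels are relative to the rest of each array, so less RNA per oocyte and fewer oocytes cannot be told apart.

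Pabpc1 rose in the mutant. In replicate order, its log2 expression was 8.43, 8.14 and 8.17 among wild-type samples and 10.02, 10.11 and 9.91 among mutants. All 3 mutant samples lay well above all 3 wild-type samples, with a gap far larger than the spread within either group. The means were 8.25 ± 0.16 and 10.01 ± 0.10, a log2 fold change of 1.77 (SE 0.15, 95% interval 1.43 to 2.10), or 3.40-fold (adjusted p = 4.71e-04). By size of change in either direction Pabpc1 ranked 399 among 19939 genes. It passed the threshold, an adjusted p under 0.05, in every alternative listed under the processing, with log2 fold changes of 1.71 to 1.91.

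Pabpc1 is the form of somatic cells, so markers of the cumulus and granulosa cells that surround the oocyte were read beside it. Of 14 measured markers 2 were higher and 0 lower in the mutant, where 6.4% of all genes were called higher and 4.04% lower. The 2 were Kitl, the Kit ligand (log2 fold change 1.94), and the nuclear receptor gene Nr5a2 (1.46). Kitl was 3.59 to 3.79 in wild type, below the receptor-gene level, and 5.42 to 5.97 in the mutant. Nr5a2, the brightest of the 14, was already 8.53 to 8.89 in wild type and was 9.96 to 10.43 in the mutant. The mean log2 level over the list was 4.75 to 4.90 on the wild-type arrays and 4.86 to 5.15 on the mutant arrays. By their means 8 of the 14 lay above the receptor-gene level, and 3 lay below it on every array. Fshr, the defining receptor for follicle-stimulating hormone, stayed between 3.66 and 4.49, and was 1 of those 3. Amh, a granulosa hormone, was 4.31 to 4.58 in wild type and 3.85 to 4.20 in the mutant, and did not pass (limma adjusted p = 0.276). Other markers that did not pass went either way on mutant replicate 3. Foxl2 (5.66), Amhr2 (4.74), Hsd17b1 (4.76), Has2 (5.21) and Fshr (4.49) lay above all their wild-type values there. Amh (4.20), Ptx3 (3.45) and Gja1 (5.38) lay below all of theirs. Of 11 theca and stroma markers 1 was higher (Pdgfra), and of 8 blood, immune and endothelial markers 1 was lower (Pecam1). Of the 16 oocyte markers 1 was lower (Kit). The same shares of all genes apply to these counts. The part of other cells in the rise of Pabpc1 was not tested. Near-identical gene copies are a further limit for this family. The rows of Pabpc2 and Pabpc6, intronless relatives of Pabpc1, lay between 3.56 and 4.21 on all 6 arrays, below the receptor-gene level. Pabpc2 was 3.56 to 3.57 in wild type and 3.73 to 4.12 in the mutant (log2 fold change 0.36, limma adjusted p = 0.228). Pabpc6 overlapped between genotypes (0.17). What the Pabpc1 row may also capture from such copies was not tested.

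Pabpc1l fell in the mutant, by less than Pabpc1 rose. Its values were 7.82, 7.68 and 7.99 in wild type and 7.27, 7.12 and 7.32 in the mutant. The groups did not overlap, and the highest mutant sample lay below the lowest wild-type sample. The log2 fold change was -0.59 (SE 0.15, 95% interval -0.93 to -0.26), a 1.51-fold lower level in the mutant, with an adjusted p of 0.0496. This call sat at the threshold. It was lost in each of the 6 fits that left out 1 array, with log2 fold changes of -0.67 to -0.51 and adjusted p of 0.0555 to 0.184, and after quantile normalization (0.0586), cyclic loess normalization (0.150) and median centring (0.0659). The call was kept among rows above the median level (0.0249), with 1 row per gene (0.0184), averaged rows (0.0178) and array weights (0.0252). An intensity trend without (0.0462) and with robust estimation (0.0487) also kept the call.

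The difference between the somatic and the oocyte form, taken within each array, was larger in the mutant. Pabpc1 minus Pabpc1l, on the log2 scale, was 0.61, 0.46 and 0.18 in wild type and 2.75, 2.99 and 2.59 in the mutant. The mean difference thus changed by 2.36, and the mutant and wild-type samples did not overlap. An exact two-sided permutation test over samples gave p = 0.10, the smallest value that 3 against 3 samples allow. Because Pabpc1 was higher and Pabpc1l lower without overlap, that value was fixed in advance, and the test adds no evidence. As probe sets differ in brightness, the difference does not show which of the forms was more abundant.

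**Figure D1:**
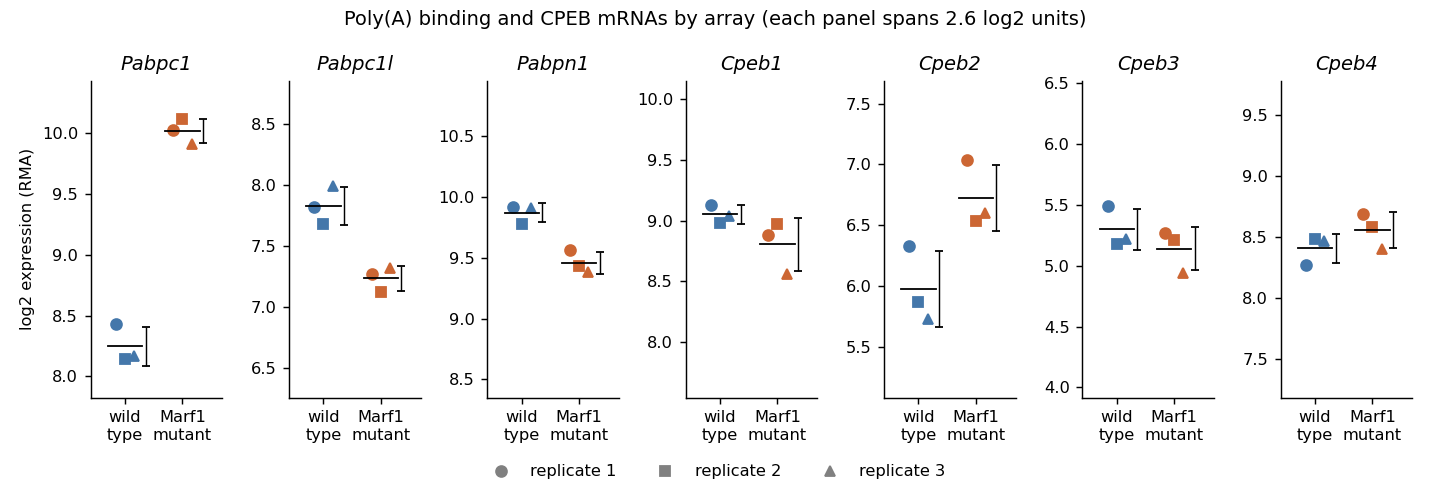
Log2 expression (RMA) of the 7 measured members, 1 panel a gene, for 3 wild-type (blue) and 3 Marf1 mutant (orange) arrays, with symbols for replicate numbers, a horizontal line for the mean and a bar for ± 1 SD. Every panel spans the same number of log2 units but starts at its own level. Pabpc1 moved from 8.14 to 8.43 up to 9.91 to 10.11, while Cpeb3 and Cpeb4 overlapped between genotypes.

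Pabpn1, the nuclear poly(A) binding protein that sets tail length during polyadenylation in the nucleus, did not pass the threshold. Its values were 9.92, 9.78 and 9.91 in wild type and 9.56, 9.43 and 9.38 in the mutant. The mutant values lay below the wild-type values without overlap. The log2 fold change was -0.41 (SE 0.13, 95% interval -0.72 to -0.11, adjusted p = 0.119), and it stayed below 0 in all 16 alternatives, between -0.47 and -0.28.

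For Pabpc4, the inducible cytoplasmic form first described in activated T cells, no value is named here. The annotation assigns 4 rows jointly to Pabpc4 and Gm12620, and these were read only as shared rows. They lay between 7.66 and 8.36 in wild type and between 7.08 and 7.77 in the mutant. Within each row all mutant values were below all wild-type values. Their log2 fold changes were -0.60 to -0.55, with adjusted p of 0.0367 to 0.0678, and 3 of the 4 passed the threshold, where 3.58% of the 1621 rows naming several genes were called lower. Among other settings, 0 passed after quantile or cyclic loess normalization and 2 after median centring. Without mutant replicate 3 all 4 passed, and without any other single array 0 did. Whether the 4 rows share probes is not known here, and they are not counted as 4 measurements.

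**Figure D2:**
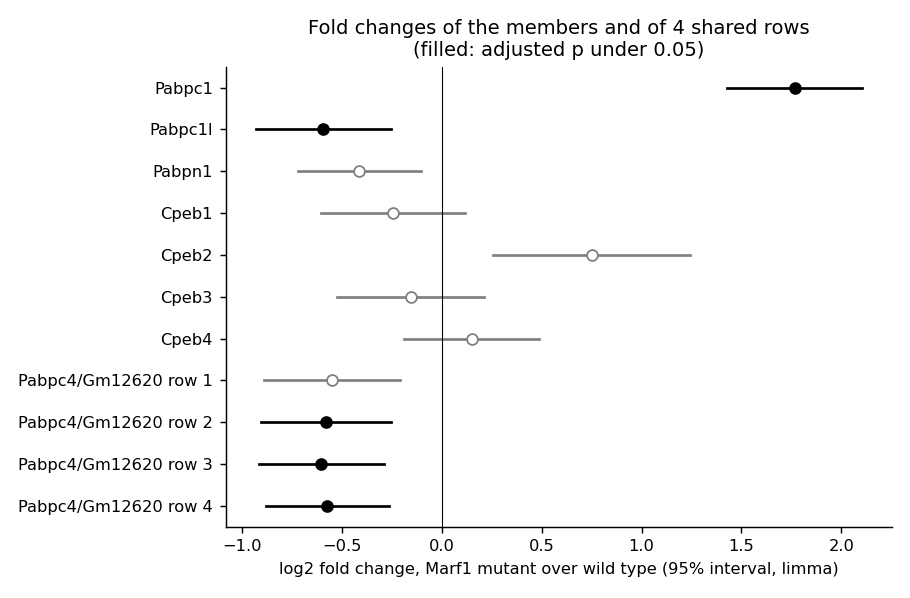
Log2 fold change, Marf1 mutant over wild type, with its 95% interval from limma, for the 7 members and the 4 rows shared by Pabpc4 and Gm12620. Filled black points passed an adjusted p of 0.05. Pabpc1 stands at 1.77, to the right of all others, and the interval of Cpeb2 (0.26 to 1.24) also lies above 0 without an adjusted p under the threshold.

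None of the 4 CPEB members passed (0 of 4, with 1, Cpeb2, higher at unadjusted p under 0.05 in limma, where 11% of all genes were higher and 13.5% lower). Cpeb1, the founding member and the one tied to meiotic progression in oocytes, was 9.13, 8.98 and 9.04 in wild type and 8.88, 8.97 and 8.56 in the mutant. The mutant samples lay below the wild-type ones, but mutant replicate 2 lay just under wild-type replicate 2. The log2 fold change was -0.25 (SE 0.16, adjusted p = 0.472), and its 95% interval, -0.61 to 0.11, includes both no change and a fall of more than 1.5-fold.

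Cpeb2, of the subfamily that also holds Cpeb3 and Cpeb4, was the CPEB gene with the largest difference. It was 6.33, 5.87 and 5.73 in wild type and 7.04, 6.54 and 6.60 in the mutant. The groups did not overlap, although wild-type replicate 1 came close to mutant replicate 2. The log2 fold change was 0.75 (SE 0.21, 95% interval 0.26 to 1.24, unadjusted p = 0.00831, adjusted p = 0.0819). It passed after cyclic loess normalization (0.89, adjusted p = 0.0487), among rows above the median level (0.0382), with 1 row per gene (0.0253) and with averaged rows (0.0248). Over all alternatives the adjusted p ran from 0.0248 to 0.252, and the fold change stayed above 0.

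Cpeb3 and Cpeb4 overlapped between genotypes. Cpeb3, known as a translational repressor in neurons, had 5.49, 5.18 and 5.22 in wild type and 5.27, 5.21 and 4.94 in the mutant, a log2 fold change of -0.16 (SE 0.16, 95% interval -0.53 to 0.21, adjusted p = 0.702). Cpeb4, which in frog oocytes takes over from the CPEB1 protein late in meiosis, had 8.27, 8.48 and 8.47 against 8.69, 8.58 and 8.40, a log2 fold change of 0.15 (SE 0.15, 95% interval -0.19 to 0.49, adjusted p = 0.685). These intervals hold changes of about the size seen for Pabpn1, so a small change in either gene was not detectable with 3 samples a group.

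Over the 7 members, 1 was called higher and 1 lower, where 6.4% of all genes were called higher and 4.04% lower (10.4% together, and 7.78% of all rows). Only Pabpc1 was called with at least a 2-fold change, as were 5.73% of all genes. All 3 mutant values lay above all wild-type values in 2 members and below them in 3, while 12.9% of all genes had all mutant values above and 17.7% below (30.7% together). The median log2 fold change of the members was -0.16, beside -0.04 over all genes. Over the rows above the median level, which held all 7 members, it was -0.09. Mutant replicate 3 was below the mean of the other mutants in 6 of the 7 members, with Pabpc1l as the exception. Over all rows that array had the smallest SD, 2.04 against 2.14 to 2.20 on the others, and the highest median, 4.76. The matching share over all genes was not computed, so this count is not read as a trait of the members. In each of the 6 fits without 1 array, 1 member was called, and it was Pabpc1. The share of calls that were higher, over all rows, was 61.5% as deposited and 73.8% after cyclic loess normalization.

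**Figure D3:**
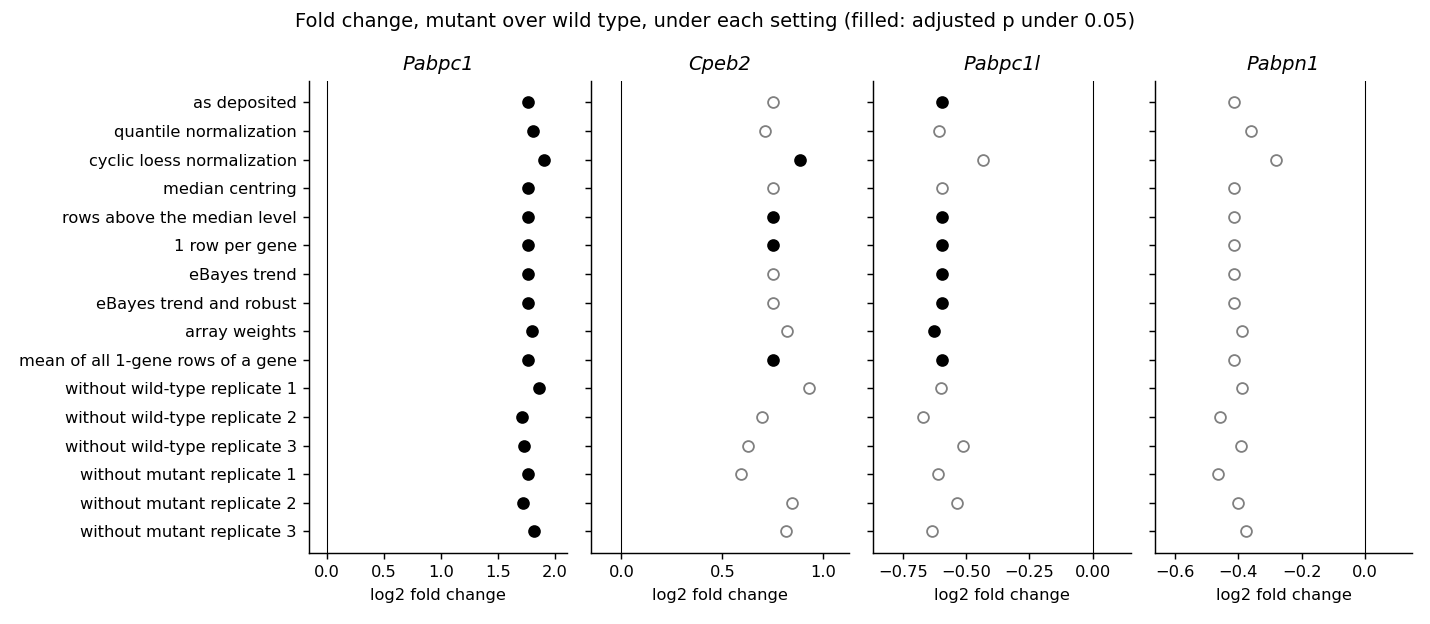
Log2 fold change, mutant over wild type, of Pabpc1, Cpeb2, Pabpc1l and Pabpn1 (columns) under the deposited values and under alternative settings (lines), with filled points where the adjusted p was under 0.05. Each gene kept its direction in every line shown, Pabpc1 passed in all of them, and Pabpc1l passed in none of the 6 fits without 1 array.

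The genes whose 6 values, centred on the wild-type mean, lay nearest to those of Pabpc1 among 19932 candidates were Etfdh, Lsm8 and Larp1. The root mean square distance, over 6 arrays, was 0.079 for Etfdh, an enzyme of mitochondrial electron transfer, 0.0994 for Lsm8, of the ring that binds U6 RNA, and 0.108 for Larp1. Nearest to Pabpc1l were Kalrn (0.0315), the dynamin gene Dnm2 (0.0368) and Fbxo9 (0.0391).

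Other poly(A) binding proteins and their regulators mostly did not pass. Of 12 measured, 1 rose and 0 fell (2 higher and 1 lower at unadjusted p under 0.05 in limma), beside a background of 10.4% of all genes called, and the list median was 0.00. At the unadjusted level 11% of all genes were higher and 13.5% lower. The riser was Larp1, a La-related protein that binds poly(A) binding protein and the mRNAs of ribosomal proteins. Larp1 was 6.49, 6.46 and 6.30 in wild type and 8.22, 8.10 and 8.06 in the mutant. All mutant samples stood far above the wild-type samples. Its log2 fold change was 1.71 (SE 0.13, 3.27-fold, adjusted p = 4.08e-04). The PABP-interacting genes Paip1, Paip2 and Paip2b, which stimulate or restrain the translation function of poly(A) binding protein, were at -0.27, -0.20 and -0.24 with none past the threshold.

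Among 21 measured genes of the cytoplasmic polyadenylation machinery, from poly(A) polymerases and the cleavage and polyadenylation factors to deadenylation adaptors, 1 rose and 0 fell (1 and 4 at unadjusted p under 0.05 in limma), where 6.4% of all genes were called higher and 4.04% lower. At the unadjusted level 11% of all genes were higher and 13.5% lower. The list median was -0.22. The riser was Tob1, an adaptor that links the CCR4-NOT deadenylase to poly(A) binding protein and to CPEB proteins. Tob1 was 7.48, 7.24 and 7.53 in wild type and 9.01, 8.98 and 8.20 in the mutant. Mutant replicate 3 stood below the other mutants and still above every wild-type sample. The log2 fold change was 1.31 (SE 0.24, adjusted p = 0.0158). The call ended in the 5 fits that left out an array other than mutant replicate 3, with adjusted p of up to 0.0618.

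A broad list of repression and RNA-binding partners of CPEB also took in cap-binding genes such as Ncbp1. Of its 21 measured genes, 2 rose and 1 fell (4 and 7 at unadjusted p under 0.05 in limma). Over all genes 6.4% were called higher and 4.04% lower. At the unadjusted level 11% of all genes were higher and 13.5% lower. The list median was -0.21. Without mutant replicate 3 the list had 4 higher and 1 lower, without any other single array 2 higher and 0 lower, and after quantile or cyclic loess normalization 4 higher and 1 lower. Ddx6, an RNA helicase of repressed mRNPs, was 8.37 ± 0.28 in wild type and rose to 9.75 ± 0.18 (adjusted p = 0.00411), a log2 fold change of 1.38 (SE 0.18). Ncbp1, the large subunit of the nuclear cap-binding complex, rose from 4.34 ± 0.43 to 6.52 ± 0.27 (2.18, SE 0.25, adjusted p = 0.00191), and since its wild-type mean lay below the receptor-gene level the rise may be a lower bound. Patl1, a decapping activator and Ddx6 partner, fell from 7.76 ± 0.13 to 6.88 ± 0.37 (-0.88, SE 0.20, adjusted p = 0.0417). Among other settings, Patl1 lost the call after median centring and in each fit that left out an array other than mutant replicate 3, and Ddx6 and Ncbp1 kept theirs in all alternatives.

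Of 21 measured mRNAs known to be regulated through cytoplasmic polyadenylation in oocytes, 2 rose and 1 fell (4 and 4 at unadjusted p under 0.05 in limma), a share near the 10.4% of all genes called in either direction. At the unadjusted level 11% of all genes were higher and 13.5% lower. The list median was -0.09. Without mutant replicate 3 there were 3 higher and 1 lower, and without any other single array 1 and 1. Wee1, an inhibitory kinase of Cdk1, was 7.42, 7.51 and 7.22 in wild type and 9.36, 9.38 and 8.75 in the mutant, and rose by 1.78 (SE 0.20, adjusted p = 0.00202). Dcp2, the decapping enzyme, fell from 9.07 ± 0.10 to 7.59 ± 0.03 (-1.49, SE 0.13, adjusted p = 6.09e-04). Tex19.1, a germ cell gene of retrotransposon control, rose from 7.43 ± 0.19 to 8.03 ± 0.03 (0.60, SE 0.15, adjusted p = 0.0484) and lost the call in several settings, among them median centring and all 6 fits without 1 array. The remaining 18 did not pass. The array measures the amount of an mRNA and not the length of its poly(A) tail or its translation.

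**Figure D4:**
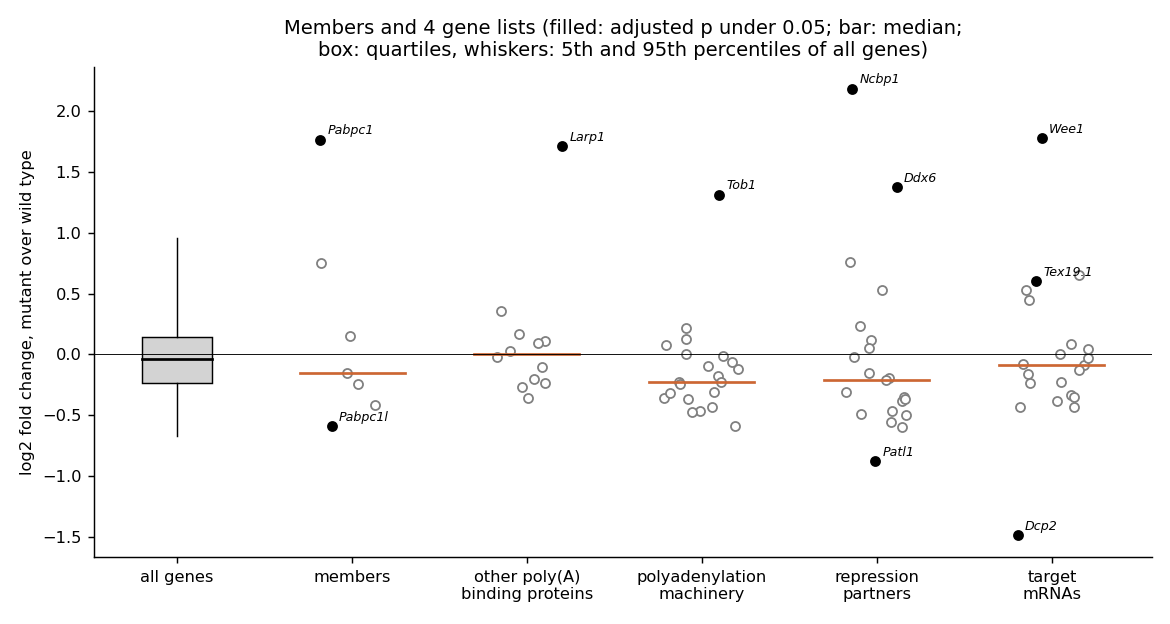
Log2 fold change, mutant over wild type, of the 7 members and of the measured genes of 4 lists, beside all genes (box from -0.24 to 0.14, whiskers from -0.67 to 0.96). Points are genes, filled and named where the adjusted p was under 0.05, and the horizontal bar is the median. Over the 71 distinct genes of the 4 lists, 6 rose and 2 fell, a share near the 10.4% of all genes called.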

How the data were processed

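The authors deposited log2 expression values, 1 per probe set and array, for 6 Affymetrix arrays. Per the submitters' processing notes the authors used GCOS, Affymetrix Expression Console 1.1 and RMA, which normalizes between arrays, although the deposited columns kept medians of 4.56 to 4.76. No intensity, background or scan data were used, and the number of arrays limits the precision. All 35556 rows were fitted in R 4.3.3 by limma 3.58.1 (default lmFit and eBayes with a genotype term, two-sided tests), with Benjamini-Hochberg adjustment over all rows and a threshold of 0.05. The pipeline was tested on simulated data. Names came from the platform annotation, in which 21789 rows named 1 gene, 1621 several and 12146 none here, updated by Entrez ID through RefSeq GRCm38.p6 (21698 rows matched). Of several rows for a gene the one with the highest mean was used, and no measured member had several.

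Named genes were the members, Marf1, up to 4 called genes per list with the largest change, and the 3 genes nearest to each called member. Others were chosen after their values were seen. Members and lists were chosen with earlier results of these data known. Some listed genes are not reported here. Alternatives were quantile, cyclic loess and median normalization, a filter on dim rows, 1 row per gene, averaged rows, an intensity trend with and without robust estimation, array weights, the replicate number as a term, and each array left out.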

Additional observations from a re-analysis of the deposited data

How the results depend on the processing

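Of 240 log2 fold changes of members and genes named from the lists under alternatives, 0 reversed, 205 kept their side of the threshold, 30 lost the call and 5, all for Cpeb2, gained it. Against 2 members called as deposited, 1 was called after quantile normalization, 1 after median centring, and 1 in each of the fits that left out an array. The count over all rows, 2765, ran from 1368 to 2804 in those fits. Pabpc1 minus Pabpc1l stayed between 2.24 and 2.46. With the replicate block the members count was again 2, with Pabpc1 and Cpeb2 (adjusted p = 0.0480) called and Pabpc1l not (0.0851). Patl1 (0.0553) and Tex19.1 (0.106) lost the call too, no other gene called from the lists did, 0 of the 4 rows shared by Pabpc4 and Gm12620 passed, and 1946 rows were called. Same-numbered deviations correlated at 0.147, -0.0992 and 0.0267 across rows, so the numbers were not taken to pair samples. The paired difference of Pabpc1 minus Pabpc1l was 2.36 (exact sign-flip test, two-sided, p = 0.25, the smallest 3 pairs allow). This p was fixed in advance by the separation of both genes. Of 128 list counts, 95 were within 1.5 times of the deposited count and 33 moved. The cause of these changes was not tested. Without scanner data, signal over background is unknown, and dim rows have no stated floor.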

Other observations

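Some partners of the CPEB complex that did not pass the threshold are given as values, chosen after these were seen. Other partners of the same list that did not pass ranged widely. Some lay nearer to 0 (Tacc3 at -0.02, Zar1l at 0.05 and Eif4a1 at 0.12). Some changed about as much as those described (Eif4g3 at -0.60, Lsm14a at -0.50, Ybx2 at -0.49 and Dazl at 0.53). Eif4e1b, the oocyte cap-binding protein that helps hold CPEB-bound mRNAs silent, was 11.22, 11.06 and 11.36 in wild type and 10.69, 10.76 and 10.53 in the mutant, with no overlap (log2 fold change -0.55, SE 0.15, adjusted p = 0.0651). Eif4enif1, the 4E-transporter that binds it, differed by -0.39 on the log2 scale (SE 0.17, adjusted p = 0.248). Patl2, the oocyte relative of Patl1, lay higher, at 7.34, 7.06 and 7.22 against 8.20, 8.10 and 7.60 (0.76, SE 0.19, adjusted p = 0.0547), while Patl1 was lower. A difference between the changes of Patl1 and Patl2 was not tested.

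Pabpn1l, the cytoplasmic poly(A) binding protein of oocytes related to Pabpn1, was 7.61, 7.51 and 7.49 in wild type and 7.40, 7.07 and 7.07 in the mutant (log2 fold change -0.36, SE 0.15, adjusted p = 0.233). Tent2, the cytoplasmic poly(A) polymerase also called Gld2, was 9.20, 9.17 and 9.14 against 9.45, 9.34 and 9.38 (0.22, SE 0.13, adjusted p = 0.410). Aurka, a kinase that phosphorylates CPEB1, differed by -0.44 (SE 0.15, adjusted p = 0.153), and Btg4, an adaptor of maternal mRNA deadenylation, -0.22 (SE 0.19, adjusted p = 0.632).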
